A study of Homo sapiens with 6 samples.

Results

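Transcripts of 7 CXC chemokine genes, most of them known as neutrophil attractants, are described here in RNA-seq libraries of a knockdown study. The genes were chosen by Ensembl mouse gene ID, as Cxcl5, Cxcl1, Cxcl2, Cxcl3, Cxcl15, Ppbp and Pf4, and all 7 were found among the 54532 IDs of each library. They were put together as a family with earlier results of these libraries known, including the higher Cxcl5 level in the libraries labelled sh4 and sh1. Their differences against the libraries labelled NC are therefore given as a description, without p-values.

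The series holds 6 libraries, 2 each labelled sh4, sh1 and NC, all labelled as A549, an established human lung adenocarcinoma line. Its design text sets a knockdown group of A549 cells against an NC group, and its title names the target DSTY. The labels do not spell out sh4, sh1 or NC, and sh4 and sh1 are read here as separate knockdown groups. They name no vector, clone, selection, time or batch, and do not say whether the libraries of a group came from separate cultures, so p-values measure only the spread between these libraries, which may be technical. All IDs carry the mouse prefix ENSMUSG, although the labels state human cells and the submitters' processing notes name a human build. That conflict is unresolved, and the genes are given here by the mouse names of their IDs. No table used here pairs the other IDs with names. The targeted gene, the defining markers of the labelled cell line and those of other cell types were therefore not analysed here.

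CXC chemokines are small secreted proteins that bind proteoglycans and form gradients for leukocytes. Those with a Glu-Leu-Arg motif ahead of the first cysteine pair act on the receptor CXCR2 and draw neutrophils out of the blood. Epithelial cells make several of them when interleukin-17, interleukin-1, tumour necrosis factor or bacterial products reach the tissue, and in the mouse the genes lie in one cluster on a single chromosome. Cxcl5, Cxcl1, Cxcl2 and Cxcl3 are inducible members, and Cxcl15 is known in the mouse as a product of lung epithelium. Ppbp encodes the platelet precursor of a neutrophil-activating peptide. Pf4, platelet factor 4, lacks the Glu-Leu-Arg motif and is not a classical neutrophil attractant, so the name of the family does not strictly cover it.

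Levels are the authors' FPKM values, that is fragments per kilobase of a gene after scaling for the depth of the library, which allow comparison between genes. The whole reads behind them were recovered from the values and came to 17942765 and 17578710 in all for sh4, 17006621 and 18010432 for sh1, and 15422607 and 14998367 for NC. For the 7 genes, 1 read was worth between 0.0155 and 0.0904 FPKM. A gene was tested where at least 2 libraries reached 1 FPKM, as for 12755 IDs in the series and 6 of the 7 chemokines. Pf4 was not tested. Cxcl15 passed through both sh4 libraries and 1 sh1 library alone, so the filter itself selected a difference for it. Cxcl1, Cxcl2 and Cxcl3 are related in sequence, and how the authors' counting treated reads that fit several genes is not given in the sources used here.

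The chemokine transcripts were far more abundant in both knockdown groups than in NC, and Cxcl5 made up most of the excess. The summed level of the 7 genes was 574.8 and 582.2 FPKM in the sh4 libraries and 948.1 and 1003 FPKM in the sh1 libraries, against 98.7 and 108.0 FPKM in the NC libraries. The 3 groups did not overlap. Of the recovered reads, the family took 20092 and 20230 in the sh4 libraries and 30059 and 33495 in the sh1 libraries, against 3003 and 3163 in the NC libraries. Without Cxcl5, the other 6 genes summed to 81.3 ± 2.2 FPKM in sh4, 188.5 ± 7.8 FPKM in sh1 and 53.0 ± 2.1 FPKM in NC (mean ± SD, n = 2 each). With Cxcl1 also left out, the remaining 5 genes summed to 29.9 ± 0.29 FPKM in sh4 and 29.2 ± 0.23 FPKM in sh1, against 8.89 ± 1.13 FPKM in NC (n = 2 each). The near-equal sums of sh4 and sh1 joined unlike levels. Cxcl3 and Cxcl2 were lower in sh4 than in sh1, and Cxcl15 and Ppbp were higher.

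**Figure D1:**
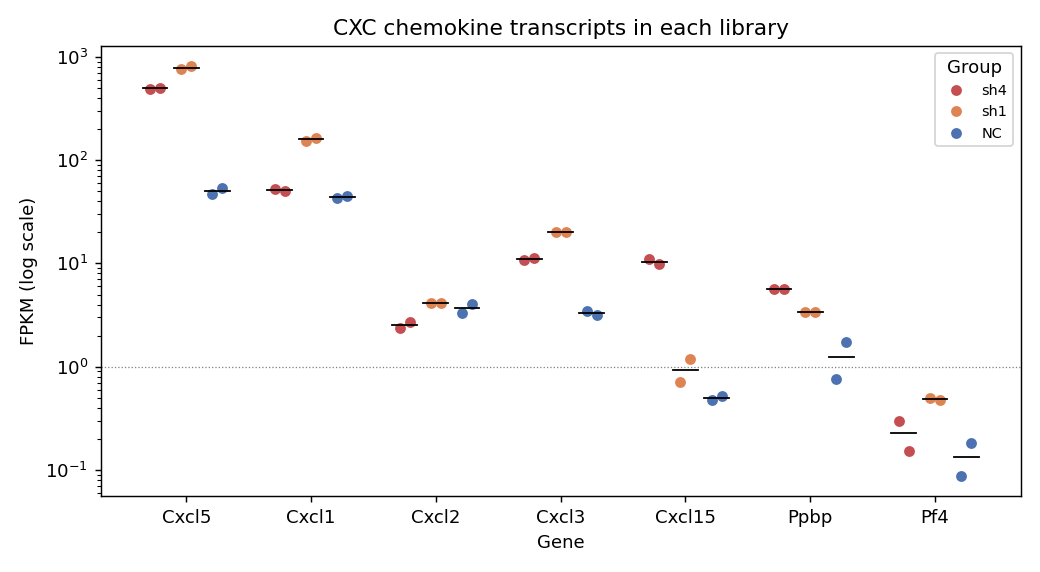
Level of each chemokine transcript in FPKM on a log axis, by gene, with 1 point per library of sh4, sh1 and NC and a line at the mean of each group (n = 2). The dotted line marks 1 FPKM. Cxcl5 stands between 492 and 809 FPKM in the sh4 and sh1 libraries and near 50 FPKM in NC, while all Pf4 values lie under 1 FPKM.

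Cxcl5 (ENSMUSG00000029371), an epithelial neutrophil attractant known in the mouse as LIX, was the most abundant of the family in each group. Its level was 491.9 and 502.5 FPKM in sh4 and 765.1 and 808.8 FPKM in sh1, against 47.2 and 53.5 FPKM in NC. The knockdown libraries were all about an order of magnitude above NC, and the sh1 libraries were the highest. By level, Cxcl5 ranked 72 and 66 among the 54532 IDs in the sh4 libraries and 54 and 49 in the sh1 libraries, against 1058 and 866 in the NC libraries. Its mean was 15.6 times that of NC in sh1 and 9.87 times in sh4. On the log2(FPKM + 1) scale sh1 differed from NC by 3.94 and sh4 by 3.28, each with an SE of 0.05. Of the IDs tested, 9 had a higher value than this in sh1 and 2 in sh4.

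Cxcl1 (ENSMUSG00000029380), the mouse chemokine known as KC, was almost as abundant as Cxcl5 in NC and was set apart in the sh1 group. It stood at 52.7 and 50.01 FPKM in sh4 and 154.0 and 164.7 FPKM in sh1, against 43.4 and 44.8 FPKM in NC. The sh1 libraries were well above all others, and the sh4 libraries lay just above NC without overlap. The mean in sh1 was 3.61 times that in NC, a log2 difference of 1.83 (SE 0.05). In sh4 it was 1.17 times that in NC, a log2 difference of 0.22 (SE 0.05). In that comparison 4481 of the IDs tested had a higher value.

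Cxcl3 (ENSMUSG00000029379), a close relative of Cxcl1, was a low transcript in NC and followed the order of Cxcl5. Its level was 10.9 and 11.3 FPKM in sh4 and 20.3 and 20.2 FPKM in sh1, against 3.46 and 3.17 FPKM in NC. The groups did not overlap, and replicates lay close together. The mean was 6.12 times that of NC in sh1 and 3.35 times in sh4, with log2 differences of 2.30 and 1.49 (SE 0.07 for both).

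Cxcl2 (ENSMUSG00000058427), the mouse macrophage inflammatory protein-2, was close to NC in sh1 and was the only tested member with a lower mean than NC in sh4. It stood at 2.38 and 2.71 FPKM in sh4 and 4.11 and 4.14 FPKM in sh1, against 3.31 and 4.07 FPKM in NC. The sh4 libraries were the lowest, and the sh1 libraries lay barely above the higher NC library. On the log2 scale the difference from NC was 0.13 in sh1, with a 95% interval of -0.11 to 0.38, and -0.40 in sh4 (SE 0.11 for both). With 91 to 151 reads per library, counting error alone is wide here. The ratio of reads, scaled as the authors scaled their values, was 1.12 in sh1 against NC, with an exact 95% interval of 0.941 to 1.34 that covers counting error only.

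Cxcl15 (ENSMUSG00000029375), known in the mouse as lungkine, was high in the sh4 libraries alone. Its level was 10.9 and 9.89 FPKM in sh4, 0.704 and 1.17 FPKM in sh1, and 0.476 and 0.521 FPKM in NC. Behind these values stood 429 and 386 reads in sh4, 25 and 44 in sh1, and 16 and 17 in NC. The sh4 libraries were far above all others, and the sh1 libraries lay above NC by few reads. The ratio of scaled reads was 20.9 for sh4 against NC (exact 95% interval 14.7 to 30.5, counting error only) and 1.90 for sh1 against NC (1.23 to 2.96). The log2(FPKM + 1) differences were 2.93 and 0.36 (SE 0.12 for both). They understate the change of so low a gene, and the difference for sh4 was 4.34 by voom on the recovered reads, a fit without the added 1 FPKM. Against NC, Cxcl15 thus had a larger fold in sh4 than Cxcl5, whose voom difference there was 3.31, although the order is the reverse on the log2(FPKM + 1) scale. For sh1, the difference was 0.54 without sh1 replicate 1 and 0.18 without sh1 replicate 2.

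Ppbp (ENSMUSG00000029372) stood above NC in both knockdown groups and was highest in sh4. Its level was 5.65 and 5.64 FPKM in sh4 and 3.37 and 3.35 FPKM in sh1, against 0.760 and 1.75 FPKM in NC. The groups did not overlap, but the NC libraries, at 13 and 29 reads, were far apart. The log2(FPKM + 1) difference against NC was 1.60 in sh4 and 0.99 in sh1 (SE 0.18 for both). The added 1 FPKM shrinks these too, and voom on the recovered reads gave 2.27 and 1.52. The mean was 4.50 times that of NC in sh4 and 2.68 times in sh1. Without NC replicate 1 the log2(FPKM + 1) differences were 1.27 in sh4 and 0.67 in sh1. Without NC replicate 2 they were 1.92 in sh4 and 1.31 in sh1.

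Pf4 (ENSMUSG00000029373) was close to the limit of detection. It had 4 and 2 reads in sh4, 6 and 6 in sh1, and 1 and 2 in NC, or at most 0.498 FPKM in any library. These are the smallest whole numbers that rebuild the deposited values. The ratio of scaled reads was 1.69 for sh4 against NC, with an exact 95% interval of 0.361 to 10.4, and 3.63 for sh1 against NC, with an interval of 0.979 to 20.0. Both intervals, which cover counting error only, include equal levels. Both platelet genes of the family were thus measured at a small share of the Cxcl5 level.

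Read over the members that passed the filter, 5 of 6 were called against NC in sh1, all of them higher, where 65.6% of all IDs tested were called and 32.4% were called higher (limma on log2(FPKM + 1), Benjamini-Hochberg adjusted p below 0.05 over 12755 IDs). Cxcl2 was the one not called. The libraries of sh1 and NC did not overlap for any of the 6, as for 82.3% of all IDs tested. In sh4, 5 of the 6 were called higher and Cxcl2 lower, where 68.1% of all IDs were called, 35.0% higher and 33.2% lower. Again none of the 6 overlapped, as for 82.7% of all IDs tested. The call of Cxcl15 in sh1 ended without NC replicate 1, without sh1 replicate 2, with no filter and by voom, and that of Cxcl2 in sh4 ended without NC replicate 2 and without sh4 replicate 1. Both comparisons use the same NC libraries. Since the members were chosen with these differences known, nothing is read from the counts.

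**Figure D2:**
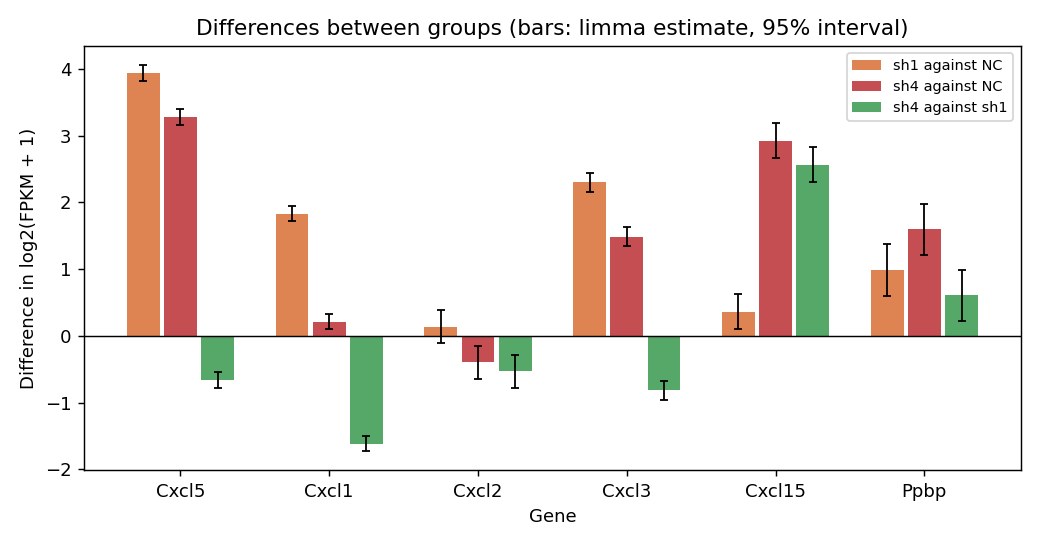
Difference in log2(FPKM + 1) for the 6 tested chemokines in each comparison, named in the legend, with the limma estimate as a bar from 0 and its 95% interval. On this scale Cxcl5 has the largest bars against NC, at 3.94 for sh1 and 3.28 for sh4, and Cxcl15 follows in sh4 at 2.93, where its ratio of means, 20.9, exceeds the 9.87 of Cxcl5. The comparison of sh4 with sh1 is negative for 4 genes and positive for Cxcl15 and Ppbp.

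The direct comparison of sh4 with sh1 asked whether the knockdown groups shared the same chemokine levels. Cxcl1, Cxcl3, Cxcl5 and Cxcl2 were lower in sh4, and Cxcl15 and Ppbp were higher in sh4. All 6 tested members were called, 2 higher and 4 lower, where 56.0% of all IDs were called, 29.5% higher and 26.4% lower (limma, adjusted over 12755 IDs). Cxcl15 entered this test through a filter that it passed by its sh4 level, although its call was also made with no filter. Higher IDs made up 52.8% of all calls on the deposited scale, 62.1% under total-read scaling and 67.0% with equal FPKM sums. Each of the 6 kept its direction under both scalings. The median difference of the 6 was -0.60, against 0.0053 over all IDs tested. Which values led to the choice of the genes is not recorded, and earlier results of this contrast were known too, so the p-values given for it are not independent of the choice.

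The difference of Cxcl1 was the largest among the genes lower in sh4. Its mean was 51.4 ± 1.9 FPKM in sh4 and 159.3 ± 7.6 FPKM in sh1 (SD, n = 2 each). The log2 difference was -1.61 (SE 0.05, limma adjusted p = 3.94e-11), and 129 of the IDs tested had a lower value. Cxcl3 averaged 11.1 ± 0.32 FPKM in sh4 and 20.3 ± 0.10 FPKM in sh1, a log2 difference of -0.81 (SE 0.07, limma adjusted p = 2.91e-07). Cxcl5 averaged 497.2 ± 7.4 FPKM in sh4 and 786.9 ± 30.9 FPKM in sh1, so that its level in sh4 was 0.632 times that in sh1 (limma adjusted p = 2.79e-07). Cxcl2 averaged 2.55 ± 0.23 FPKM in sh4 and 4.13 ± 0.02 FPKM in sh1, a log2 difference of -0.53 (SE 0.11, limma adjusted p = 0.0014). For these 4 genes both sh4 libraries were below both sh1 libraries. None of the 6 tested members overlapped between sh4 and sh1, as for 78.0% of all IDs tested.

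Cxcl15 and Ppbp went the other way. Cxcl15 averaged 10.4 ± 0.73 FPKM in sh4 and 0.939 ± 0.333 FPKM in sh1, a log2 difference of 2.57 (SE 0.12). It passed the filter through the group where it was high, so this is a description and no p is given. Ppbp averaged 5.64 ± 0.01 FPKM in sh4 and 3.36 ± 0.01 FPKM in sh1, a log2 difference of 0.61 (SE 0.18, limma adjusted p = 0.011). This call was not firm, since it was lost with no filter (adjusted p = 0.13) and in each of the fits without an sh4 or sh1 library (adjusted p from 0.050 to 0.065), with the difference still between 0.60 and 0.61. Over all its alternatives the adjusted p ranged up to 0.13. The ratio of scaled reads of Ppbp was 1.68 for sh4 against sh1 (exact 95% interval 1.34 to 2.11, counting error only). Counting alone gives the difference between its replicates a standard deviation of 13.3% of the mean in sh4 and 17.9% in sh1. The SDs of 0.01 FPKM therefore understate the error of these means.

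**Figure D3:**
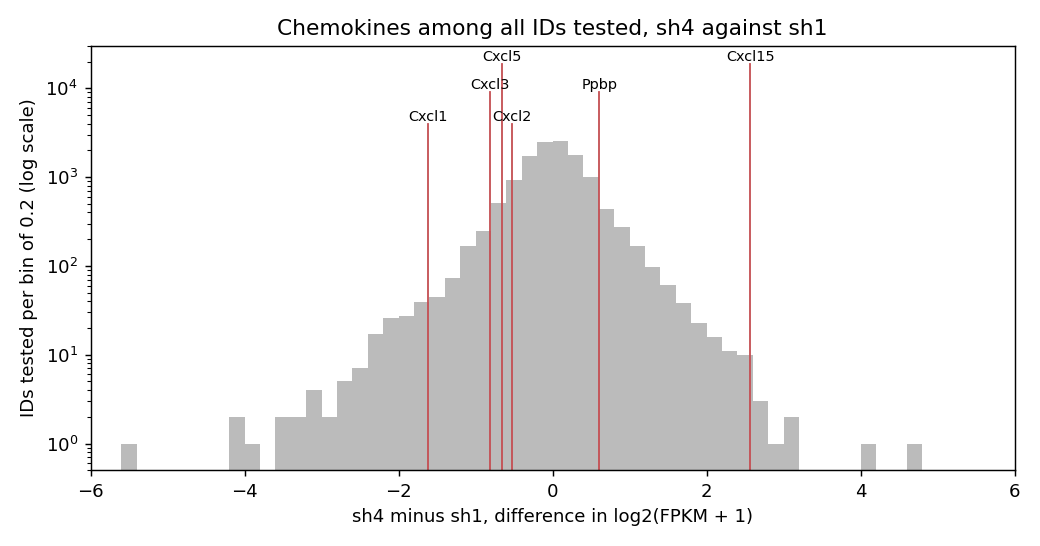
Histogram of the difference sh4 minus sh1 in log2(FPKM + 1) over the 12755 IDs tested, in bins of 0.2 with counts on a log axis, and a vertical line for each tested chemokine. Cxcl1 at -1.61 and Cxcl15 at 2.57 lie in opposite tails, and the other 4 lie on the flanks between them.

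The makeup of the family therefore differed between the groups as well as its sum. Cxcl5 held 85.6% and 86.3% of the summed FPKM in the sh4 libraries and 80.7% in both sh1 libraries, against 47.8% and 49.6% in NC. Cxcl1 held 9.17% and 8.59% in sh4 and 16.2% and 16.4% in sh1, against 44.0% and 41.5% in NC. For each Cxcl1 fragment per kilobase there were 9.33 and 10.05 of Cxcl5 in the sh4 libraries and 4.97 and 4.91 in the sh1 libraries, against 1.09 and 1.20 in NC. Such ratios within a library do not depend on how libraries were scaled to each other. The ratio of Cxcl1 to Cxcl3 took the opposite order, at 4.85 and 4.42 in sh4 and 7.57 and 8.15 in sh1, against 12.6 and 14.1 in NC. Cxcl15 held 1.90% and 1.70% of the sum in sh4, 0.0742% and 0.117% in sh1, and 0.483% in both NC libraries.

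**Figure D4:**
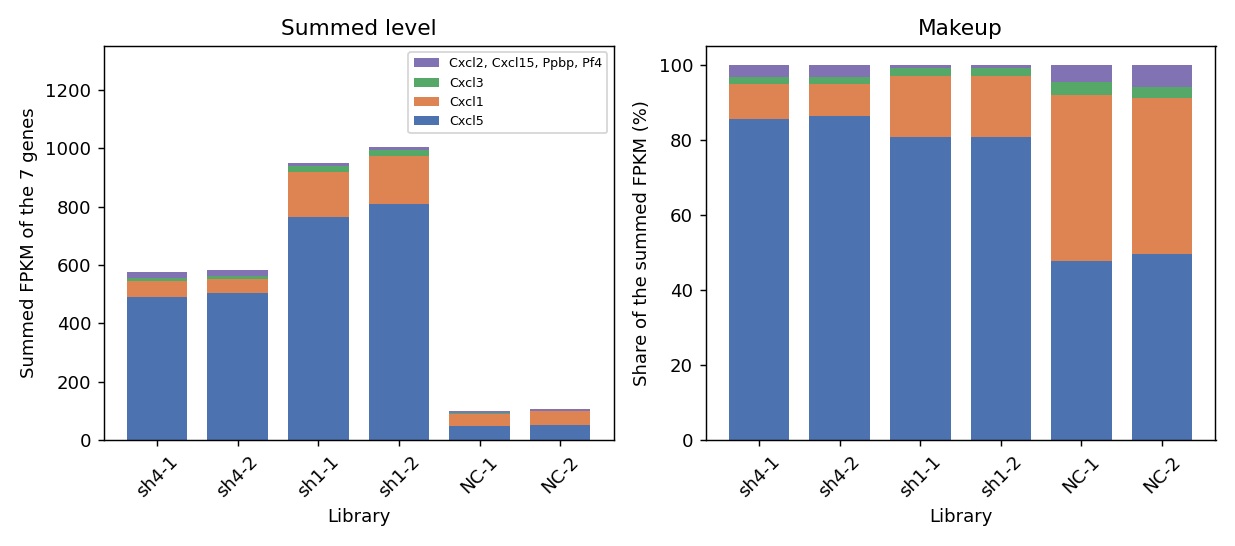
Summed FPKM of the 7 chemokine genes per library (left, stacked from 0) and the share of each gene in that sum in percent (right), with Cxcl2, Cxcl15, Ppbp and Pf4 drawn together. Cxcl5 fills over 80% of the sum in each sh4 and sh1 library and under 50% in NC, where Cxcl1 takes most of the remainder.

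The order of the genes by level changed below the top pair. Cxcl5 and Cxcl1 led in each group, 9.68-fold apart in sh4, 4.94-fold apart in sh1 and 1.14-fold apart in NC. Cxcl3 came next in sh4 and in sh1, followed in sh4 by Cxcl15, whose libraries overlapped those of Cxcl3, then Ppbp and Cxcl2. In sh1 the order after Cxcl3 was Cxcl2, Ppbp and Cxcl15. In NC, Cxcl2 and Cxcl3 came next and overlapped, ahead of Ppbp and Cxcl15. Pf4 was last in each group. Other neighbours in these orders did not overlap between their libraries, but some steps rest on few reads. In sh1, Cxcl2 was 1.23-fold above Ppbp, which had 61 and 64 reads there.

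Patterns across the 6 libraries were compared by the root-mean-square difference of log2(FPKM + 1), each ID centred on its own mean. Measured this way, Cxcl3 was 0.82 log2 units from Cxcl5, place 49 among the other 12754 IDs tested. Ppbp was 1.22 from Cxcl5, at place 376, and Cxcl1 was 1.28 from it, at place 580. Cxcl15 and Cxcl2 were farther from Cxcl5, at places 3812 and 6970. A place depends on the gene it is counted from. Cxcl5 was at place 2926 from Cxcl3, 12330 from Ppbp and 12255 from Cxcl1. Cxcl1 and Cxcl3 were 0.53 apart, and Cxcl15 had Ppbp as its nearest member, at 0.84 and place 287. Counted from Ppbp, Cxcl15 was at place 9073. The 3 closest IDs were sought only among those averaging at least 5 FPKM, which left out Cxcl2, Cxcl15 and Ppbp as candidates. Cxcl5, Cxcl1 and Cxcl3 could be listed, and none of them was among the 3 IDs closest to another member. Whether chemokines outside the family were among the closest IDs was not examined, since those IDs had no names here. The closest to Cxcl5 was ENSMUSG00000037362 at 0.19, and the closest to Cxcl15 was ENSMUSG00000029641 at 0.25, both without a name here.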

How the data were processed

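Total RNA of 6 libraries (2 each labelled sh4, sh1 and NC) was extracted with Trizol and sequenced by Illumina protocols, per the labels. HISAT2 2.0.5 and the build hg18 are named in the submitters' processing notes. No source used here gives the counter, annotation or filters. Per the file headers, the authors deposited 1 FPKM value per gene ID and library.

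Whole reads and gene lengths were recovered from the FPKM steps. They rebuilt 25746 of the 25747 IDs above 0 to within 1e-06 FPKM plus a ten-millionth of the value. The denominators of the libraries followed median-of-ratios size factors to within 0.00414%, so the deposited values already carry a scaling between libraries. Simulated data for checks were drawn from the recovered reads and lengths. On them the recovery was checked after it had run, and the fit before it was applied.

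Values of log2(FPKM + 1) were fitted with limma 3.58.1 (R 4.3.3) over IDs that reached 1 FPKM in 2 or more libraries, with all 6 libraries, 3 residual degrees of freedom, a robust variance trend on mean reads, and Benjamini-Hochberg adjustment at 0.05. The design foresaw this for FPKM. Exact intervals of read ratios were computed in scipy 1.17.1 at 95% and cover counting error only.

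The members, lists and tests were chosen with earlier results of these data known. Of 150 planned symbols in 13 lists of related genes and cell type markers, 0 could be matched to an ID, and these lists were not analysed here. The genes named were all members and, by rule, the IDs with the pattern closest to a tested member, of which 2 are printed. The genes next to the cluster were not analysed here. Alternatives were another pseudocount, other filters, other scalings, a replicate block, another variance trend, voom, a minimum change, and leaving out each library.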

Additional observations from a re-analysis of the deposited data

Results flagged for a closer look

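For 5 chemokines the difference from NC was called unlike in sh4 and sh1, by limma's direct test of these groups. The p was adjusted over 12755 IDs. Earlier results of this contrast were known when the genes were chosen, so these calls are not independent of that choice. The log2 difference, sh4 minus sh1, was -0.66 for Cxcl5, -1.61 for Cxcl1, -0.53 for Cxcl2 and -0.81 for Cxcl3. It was 0.61 for Ppbp, whose call was lost in 5 of 13 alternatives. Cxcl15 had a difference of 2.57, given as a description only, since it passed the filter on low values through sh4, where it is high. In each case both sh4 libraries lay on the same side of both sh1 libraries, as for 78.0% of all IDs tested. A limma call between sh4 and sh1 was also common in these data, at 56.0% of all IDs tested.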

How the results depend on the processing

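The number of IDs called was within 1.5 times its value under each alternative except the minimum change of 1 log2 unit, which gave 1272 IDs in sh1 and 1287 in sh4 against NC, and 809 between sh4 and sh1, fewer by construction. That minimum left 3 chemokines called in sh1, 4 in sh4 and 2 between sh4 and sh1. Cxcl1 was among those left in sh1 and not among those left in sh4. A mean of at least 5 FPKM removed Cxcl2, Cxcl15 and Ppbp from the test and left 3 called in each comparison. Fits that dropped a single library called 7151 to 8354 IDs in sh1, 7672 to 8416 in sh4 and 5669 to 7168 between them, with 4 to 5, 5 to 6 and 5 to 6 chemokines called, in that order. There, a lone library takes the spread of the remaining groups. The replicate block called 8503, 8836 and 7345 IDs, with no chemokine call changed. Libraries with the same number had deviations that correlated at -0.01 for sh1 and NC, 0.12 for sh4 and NC, and -0.02 for sh4 and sh1, so the numbers were not taken to pair libraries. Another filter, the replicate block, another variance trend or leaving out a library of the group not compared cannot move a log2 difference. With those refits included, no log2 difference of a tested chemokine reversed, in 81 refits per comparison. The call was lost in 4 of these for Cxcl15 in sh1, 2 for Cxcl2 in sh4 and 5 for Ppbp between sh4 and sh1; the cause was not tested. Equal FPKM sums shifted the median difference of all IDs by at most 0.10, between sh4 and sh1. The few reads of Pf4, Cxcl15 and Ppbp in NC limit what can be said of their folds.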

Other observations

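For most chemokines and groups the replicates differed by less than 2 counting standard deviations, with exceptions at both high and low levels. The sh1 replicates of Cxcl5 differed by 5.55% of their mean, where counting alone gives a standard deviation of 0.892%. For Cxcl5 in NC these values were 12.5% and 3.70%, and for Cxcl1 in sh1 6.73% and 1.97%. The NC replicates of Ppbp differed by 78.7% of their mean, with a counting standard deviation of 30.9%, and the sh1 replicates of Cxcl15 by 50.1% with 24.1%. Copies of one molecule made by PCR cannot be told apart here, so these standard deviations are lower limits.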
